A study of Mus musculus with 12 samples.

Results

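Liver expression of 9 enzymes of the methionine and one-carbon cycle was compared between adult male offspring of UCP1-KO dams and of WT dams. The genes were Mat1a, Gnmt, Bhmt, Bhmt2, Ahcy, Shmt1, Sardh, Pemt and Nnmt, taken by gene symbol from the annotation of the array, and all 9 symbols were measured, of 19505 in all. They had 13 of the 22206 probe sets tested. Where a symbol had several probe sets, which was the case for Pemt, the one with the highest mean over the 12 arrays was used.

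One array was hybridised per mouse, with 6 offspring of UCP1-KO dams (arrays 7 to 12) and 6 offspring of WT dams (arrays 1 to 6). The dams lacked or carried uncoupling protein 1, the protein of brown fat mitochondria that turns fuel into heat. All sires were heterozygous for Ucp1, and all 12 sons, of the strain C57BL/6J, are labelled heterozygous too. The livers are from sons aged 4 to 5 months, on a standard chow diet and kept at 23 °C. The groups therefore differ by label in the genotype of the mother. The parent that passed on the mutant allele differs with it and cannot be told apart from it. The labels do not say which sons were littermates, so the p-values rest on the spread among mice of which some may be siblings.

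The methionine cycle turns methionine into S-adenosylmethionine, the methyl donor of the cell. Each methylation leaves S-adenosylhomocysteine, which is split to homocysteine, and homocysteine is either methylated back to methionine or passed on to cysteine. The liver carries most of this traffic. It regenerates methionine with methyl groups from folate or from betaine, an oxidation product of choline, and uses much S-adenosylmethionine to make creatine and phosphatidylcholine.

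No change between the groups was called for any of the 9 enzymes. By limma's moderated test 0 of 9 passed at an adjusted p under 0.05 (adjusted p = 0.406 to 0.907), and 0 of 9 had an unadjusted p under 0.05, with or without a change of at least 1.5-fold. Among all probe sets tested, 0.036% passed the first threshold, 13.1% the second and 2.27% the second with the fold. The groups overlapped for all 9 genes, as they did for all but 1.05% of all probe sets. In the mean, 4 genes lay above and 5 below the WT-dam offspring, with a median log2 difference of -0.06, against 0.03 over all probe sets. For 8 of the 9 the 95% interval of the difference lay within 1 log2 unit on either side of 0. The exception was Nnmt, which was higher in 3 of the 6 offspring of UCP1-KO dams than in any offspring of WT dams.

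All 9 genes were well above background, with means 5.46 or more log2 units over the negative control probe sets. Hepatocyte markers had a mean log2 signal of 18.77 ± 0.09 in offspring of UCP1-KO dams and 18.68 ± 0.09 in offspring of WT dams (SD, n = 6 each, 6 genes, exact two-sided permutation p = 0.13). The median of the negative controls was 5.96 to 6.36 on the arrays of the offspring of UCP1-KO dams. Among the WT-dam arrays, numbers 3 to 6 read 6.41 to 6.62 and numbers 1 and 2 read 6.14. On the first principal component of all probe sets, which held 19.8% of the variance, UCP1-KO-dam arrays 8, 10 and 11 stood highest, at 37.5, 26.3 and 34.2. The other UCP1-KO-dam arrays lay between -2.4 and 1.7. WT-dam array 2 lay among them at 1.2, and the other WT-dam arrays between -24.1 and -14.4. Results are given with and without UCP1-KO-dam arrays 8, 10 and 11, or WT-dam arrays 3 to 6, where that changes their direction.

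**Figure D1:**
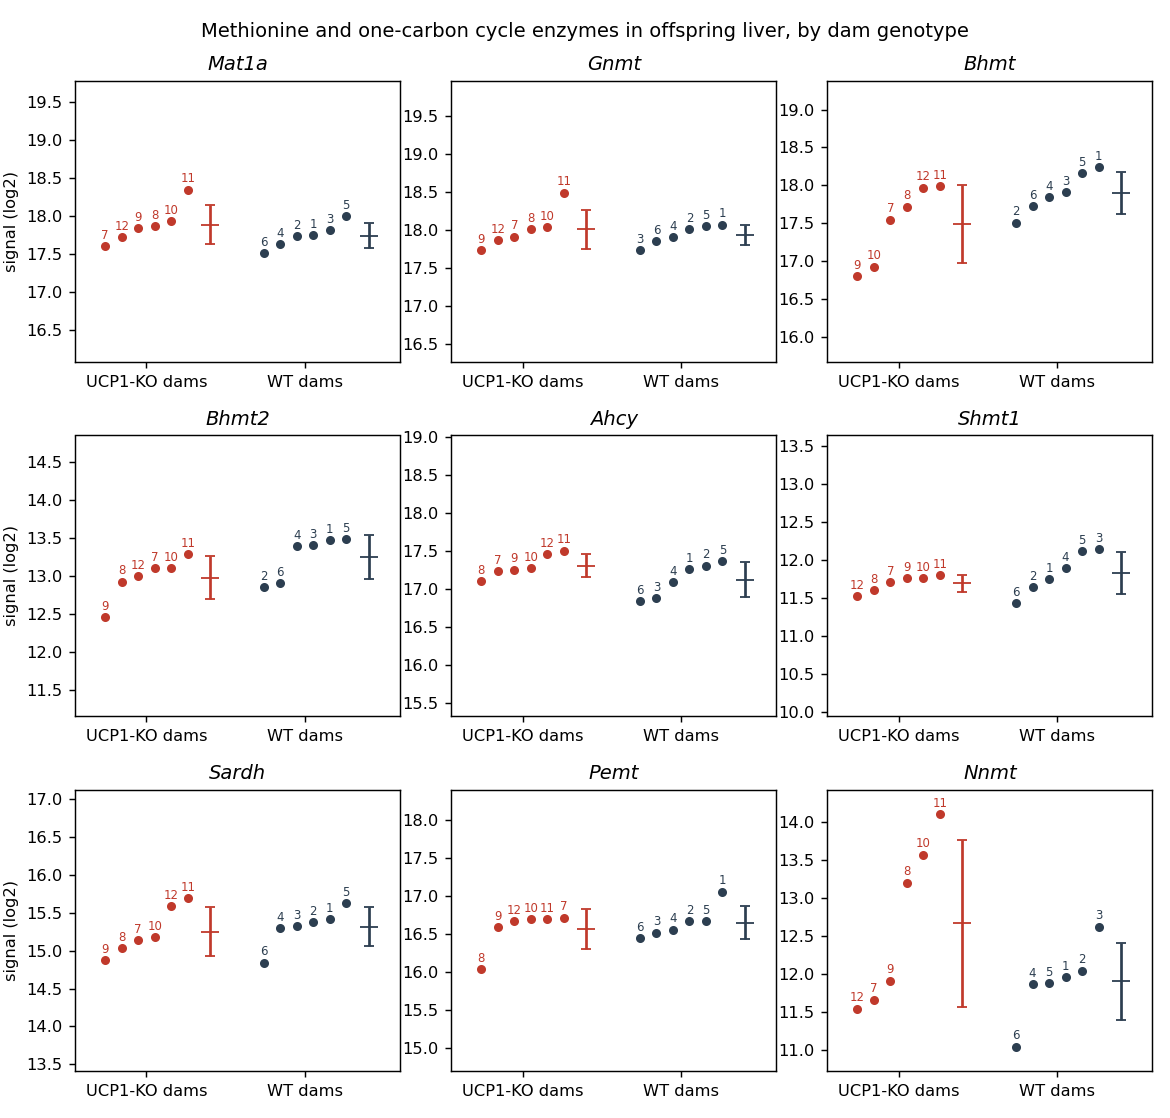
Log2 signal of the 9 enzymes on each array (points, numbered by array), with offspring of UCP1-KO dams at the left of each panel and offspring of WT dams at its right. Bars are mean and SD (n = 6), every panel spans the same number of log2 units, and in Nnmt arrays 8, 10 and 11 lie above all arrays of the other group.

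Sequences upstream of 3 of the genes are shown first. Bhmt and Bhmt2 are neighbouring relatives whose signals were the furthest below those of WT-dam offspring, and Ahcy had the highest positive difference after Nnmt. The windows are the 250 bases before the annotated start, from RefSeq on the build GRCm38.p6, where 7 of the 9 symbols had an entry. The Bhmt window is chr13:93637759-93638008, that of Bhmt2 chr13:93674303-93674552 and that of Ahcy chr2:155074498-155074747, and all lie on the minus strand. Capitals mark matches to CCAAT or to AGGTCA, the half-site of many nuclear receptors, on either strand.
Bhmt: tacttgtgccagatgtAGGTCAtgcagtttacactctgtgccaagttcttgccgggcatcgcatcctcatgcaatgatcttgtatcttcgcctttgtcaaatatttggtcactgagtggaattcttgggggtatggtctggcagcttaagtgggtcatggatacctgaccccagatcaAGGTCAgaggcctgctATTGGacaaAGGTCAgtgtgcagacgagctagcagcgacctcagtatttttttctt
Bhmt2: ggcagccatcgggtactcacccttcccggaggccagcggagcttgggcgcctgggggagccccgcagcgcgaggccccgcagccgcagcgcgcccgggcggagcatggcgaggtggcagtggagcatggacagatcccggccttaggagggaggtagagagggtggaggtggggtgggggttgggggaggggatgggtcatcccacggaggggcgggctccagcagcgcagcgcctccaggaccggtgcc
Ahcy: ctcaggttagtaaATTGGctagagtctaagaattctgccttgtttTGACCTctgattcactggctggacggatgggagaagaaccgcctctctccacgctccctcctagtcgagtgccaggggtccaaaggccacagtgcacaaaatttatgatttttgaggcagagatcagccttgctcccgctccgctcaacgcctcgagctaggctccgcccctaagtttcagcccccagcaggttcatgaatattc
The Bhmt window held AGGTCA at 234, 72 and 47 bases before the start on the coding strand and CCAAT at 56 bases on the other strand. The Ahcy window held CCAAT at 237 bases and AGGTCA at 205 bases before the start, both on the other strand. In the window of Bhmt2 there were 0 matches. No match overlapped another. The TATA box TATAAA, the E-box motif CACGTG and the glucocorticoid receptor half-site TGTTCT were also searched on both strands and had 0 matches in the 3 windows. Of all 32851 promoter windows of this length in the table, 33.8% held CCAAT, 14.0% the nuclear receptor half-site, 12.4% the TATA box, 6.02% the E-box motif and 16.1% the glucocorticoid receptor half-site. Bhmt2 also differed in base composition, with 74.0% G and C and 20 CpG pairs, against 48.0% and 5 for Bhmt, 52.8% and 9 for Ahcy and medians of 52.4% and 6 over all windows. These matches are descriptions of letters, and factor binding was not measured.

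Mat1a makes S-adenosylmethionine from methionine in the adult liver. Its signal ran from 17.61 over a median of 17.85 to 18.35 in offspring of UCP1-KO dams, and from 17.51 over 17.75 to 18.00 in offspring of WT dams. Only UCP1-KO-dam array 11 lay above all WT-dam arrays. The means were 17.89 ± 0.26 and 17.74 ± 0.17 (SD, n = 6 each), so the groups differed by 0.15 (log2, 95% interval -0.15 to 0.44, adjusted p by limma = 0.698). Without UCP1-KO-dam arrays 8, 10 and 11 the difference was -0.02.

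Ahcy encodes the hydrolase that removes S-adenosylhomocysteine, which would otherwise inhibit methyltransferases. It read 17.11 to 17.51, with a median of 17.27, in offspring of UCP1-KO dams and 16.84 to 17.37, with a median of 17.18, in offspring of WT dams. Of the 6 UCP1-KO-dam arrays, 5 lay above the WT-dam mean and 2, arrays 11 and 12 at 17.51 and 17.46, above every WT-dam array. The log2 difference was 0.18 (interval -0.10 to 0.46, limma adjusted p = 0.587, exact permutation p = 0.134), with means of 17.31 ± 0.15 and 17.13 ± 0.23 (SD, n = 6 each). It was 0.02 without WT-dam arrays 3 to 6, of which arrays 3 and 6, at 16.88 and 16.84, were the lowest of all.

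Gnmt, the abundant glycine methyltransferase that uses up surplus S-adenosylmethionine and makes sarcosine, differed by 0.07 (interval -0.21 to 0.36, limma adjusted p = 0.864). Its range was 17.73 to 18.49 in offspring of UCP1-KO dams, with a median of 17.96, and 17.73 to 18.07 in offspring of WT dams, with a median of 17.95. The lowest arrays of both groups thus read alike, and the excess sat on UCP1-KO-dam array 11, without which the difference was -0.02. It was -0.10 without UCP1-KO-dam arrays 8, 10 and 11 and -0.03 without WT-dam arrays 3 to 6. Sardh, the mitochondrial dehydrogenase that returns sarcosine to glycine, read 14.87 to 15.69 with a median of 15.16 in offspring of UCP1-KO dams and 14.84 to 15.63 with a median of 15.34 in offspring of WT dams. The 2 ranges nearly coincided, and the log2 difference was -0.06 (interval -0.41 to 0.28, limma adjusted p = 0.907), and 0.01 without UCP1-KO-dam array 9.

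Bhmt methylates homocysteine with betaine and so links choline breakdown to methionine. It read 17.55, 17.72, 16.81, 16.93, 17.99 and 17.97 on UCP1-KO-dam arrays 7 to 12, and 18.24, 17.51, 17.91, 17.85, 18.16 and 17.73 on WT-dam arrays 1 to 6. Arrays 9 and 10 of the offspring of UCP1-KO dams lay below every WT-dam array, while the other 4 lay inside the WT-dam range. The means were 17.49 ± 0.51 in offspring of UCP1-KO dams and 17.90 ± 0.27 in offspring of WT dams (SD, n = 6 each). The log2 difference of -0.41 (interval -0.84 to 0.03) did not pass (limma adjusted p = 0.41, exact permutation p = 0.13). With 1 array left out it ran from -0.50, without UCP1-KO-dam array 11, to -0.27, without UCP1-KO-dam array 9. Its unadjusted p by limma was under 0.05 in 4 of 21 refits, and none of them passed after adjustment.

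Bhmt2, a relative of Bhmt that takes its methyl group from S-methylmethionine, had the same direction in its mean. Its values were 12.46 to 13.29 with a median of 13.05 in offspring of UCP1-KO dams and 12.86 to 13.49 with a median of 13.40 in offspring of WT dams. Of the UCP1-KO-dam arrays, 5 lay below the WT-dam mean and 1, array 9 at 12.46, below every WT-dam array. The log2 difference was -0.27 (interval -0.61 to 0.07, limma adjusted p = 0.489, exact permutation p = 0.136). With 1 array left out the difference ran from -0.35, without WT-dam array 2, to -0.17, without array 9. It was -0.14 with the negative control signal as covariate and -0.18 without WT-dam arrays 3 to 6. Without UCP1-KO-dam arrays 8, 10 and 11 it was -0.40. Because the 2 genes are close relatives, probes of one may bind transcripts of the other, which was not tested.

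Shmt1, the cytosolic enzyme that moves a one-carbon unit from serine to folate, read 11.52 to 11.80 in offspring of UCP1-KO dams and 11.43 to 12.14 in offspring of WT dams, with medians of 11.73 and 11.82. All 6 UCP1-KO-dam arrays lay inside the WT-dam range and below the WT-dam mean. The SD was 0.11 in offspring of UCP1-KO dams and 0.28 in offspring of WT dams, and the log2 difference was -0.13 (interval -0.42 to 0.16, limma adjusted p = 0.722). Without WT-dam arrays 3 to 6 that difference was 0.00.

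Pemt makes phosphatidylcholine by methylating phosphatidylethanolamine and is among the largest users of S-adenosylmethionine in liver. Its brightest probe set read 16.04 to 16.72 with a median of 16.68 in offspring of UCP1-KO dams and 16.45 to 17.06 with a median of 16.61 in offspring of WT dams. One array, number 8, lay below all WT-dam arrays. The log2 difference was -0.08 (interval -0.39 to 0.23, limma adjusted p = 0.854), and 0.02 without array 8 or 0.01 without arrays 8, 10 and 11. It was -0.30 without WT-dam arrays 3 to 6 and -0.17 with the negative control signal as covariate. The 4 other probe sets of Pemt, which are not placed on a chromosome by their names, had differences of 0.06, -0.06, 0.04 and -0.08, so the probe sets disagreed in sign and all lay within 0.1 of 0.

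**Figure D2:**
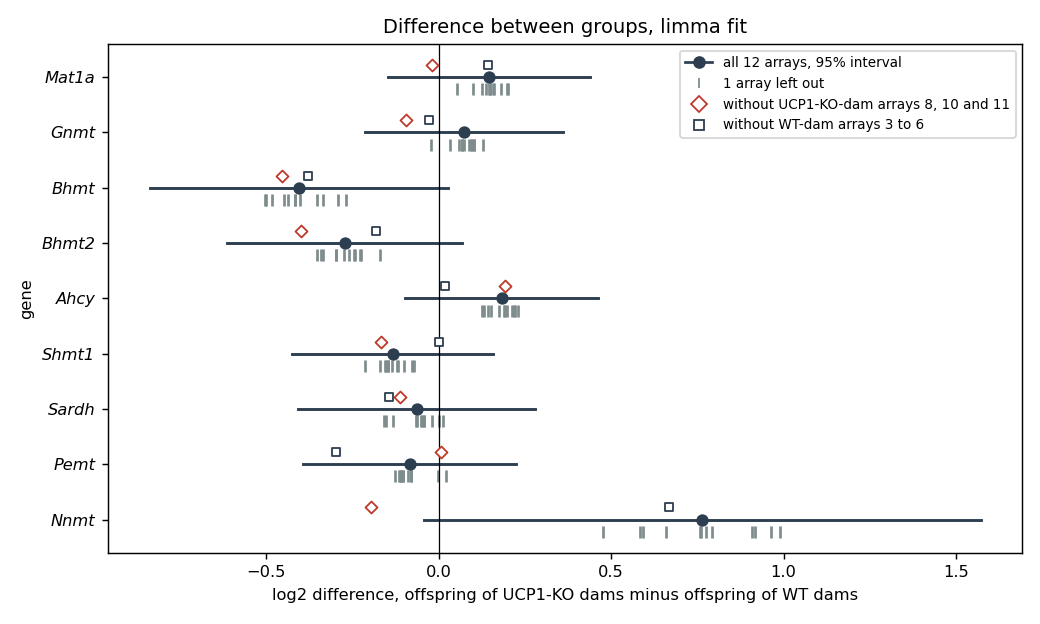
Log2 difference of each enzyme (UCP1-KO-dam minus WT-dam offspring) from the limma fit with its 95% interval. Grey ticks leave out 1 array each, diamonds leave out UCP1-KO-dam arrays 8, 10 and 11 and squares WT-dam arrays 3 to 6. Every interval crosses 0, and the estimate of Nnmt lies at 0.76 with all arrays and at -0.20 without the 3 arrays.

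Nnmt methylates nicotinamide, a form of vitamin B3, and thereby consumes S-adenosylmethionine and withdraws nicotinamide from NAD synthesis. It is known from adipose tissue and liver. Its signal was 11.66, 13.20, 11.91, 13.57, 14.10 and 11.54 on UCP1-KO-dam arrays 7 to 12, and 11.96, 12.04, 12.62, 11.86, 11.88 and 11.04 on WT-dam arrays 1 to 6. Arrays 8, 10 and 11 lay above all 6 WT-dam arrays, and arrays 7, 9 and 12 lay inside the WT-dam range. The means were 12.66 ± 1.10 in offspring of UCP1-KO dams and 11.90 ± 0.51 in offspring of WT dams (SD, n = 6 each). The log2 difference of 0.76 corresponds to 1.70-fold (interval 0.97 to 2.97-fold) and did not pass (limma adjusted p = 0.406, exact permutation p = 0.152). Without arrays 8, 10 and 11, which were left out for their place on the first principal component, the difference was -0.20. Over its 21 alternatives the limma adjusted p was 0.268 to 0.869, and the unadjusted p was under 0.05 in 4 of them, as for Bhmt.

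Nnmt also varied more between mice than the other 8 enzymes. Its SD within groups, pooled over both, was 0.85, larger than that of 99.2% of the 10971 probe sets brighter than the negative controls. The next most variable enzyme was Bhmt with 0.41, larger than 87.3% of them. The pooled SD of the other 7 was 0.19 for Ahcy to 0.29 for Sardh. The 3 arrays high in Nnmt are those that stood apart on the first principal component, and they were also the 3 lowest in pericentral hepatocyte markers, with means over 9 genes of 12.30, 12.52 and 12.18. The other UCP1-KO-dam arrays read 12.72 to 12.89 and the WT-dam arrays 12.60 to 13.11 in that list (exact permutation p = 0.0325 between the groups). Within the list, Oat was highest of all on array 11 at 16.76, and Lgr5 highest of its group on array 10 at 7.96. WT-dam array 6, lowest of all in Nnmt at 11.04, was the lowest WT-dam array in this list at 12.60. Periportal markers averaged 16.28, 16.41 and 16.61 on arrays 8, 10 and 11 and 16.07 to 16.42 on the other UCP1-KO-dam arrays. On the WT-dam arrays they averaged 15.78 to 16.28 (exact permutation p = 0.039 between the groups). Both p-values are unadjusted and are the smallest among the marker lists. No gene of either list was called (lowest limma adjusted p = 0.152 and 0.124). The part of lobular zonation in the Nnmt values was not tested.

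Other cells that carry Nnmt are adipocytes and fibroblasts. Of the 6 adipocyte markers measured, 1 (Fabp4, also known from endothelium) was brighter than the negative controls, and Adipoq, Plin1, Lep, Retn and Cidea were not. The adipocyte list averaged 4.96 to 5.39 in offspring of UCP1-KO dams and 4.83 to 5.26 in offspring of WT dams. Array 8 was highest at 5.39, while arrays 10 and 11, at 5.00 and 5.08, lay inside the WT-dam range. Stellate cell and fibroblast markers averaged 8.77 to 9.13 and 8.47 to 9.05 (7 genes, 6 of them above the negative controls, exact permutation p = 0.208), with arrays 8, 10 and 11 at 8.77, 8.80 and 9.13. In whole liver, fewer cells of a type and less RNA per cell cannot be told apart.

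After each group was centred on its mean, UCP1-KO-dam array 11 was the highest of its group for 8 of the 9 enzymes, and WT-dam array 6 was the lowest of its group for 6. UCP1-KO-dam array 9 was the lowest of its group for 4, namely Gnmt, Bhmt, Bhmt2 and Sardh. In offspring of UCP1-KO dams, Nnmt read 13.20 or more on arrays 8, 10 and 11 and 11.91 or less on the others. Its pairs are therefore set apart. Of these, the pair with Pemt had an r below 0 (-0.08) and the others had an r above 0. Among the other 8 enzymes, 28 of 28 pairs had a Pearson's r above 0 over the 12 arrays, from 0.05 to 0.80 with a median of 0.46. Without the 2 arrays furthest from the median of the first enzyme of a pair, 5 of these 28 values were below 0, the lowest being -0.56 for Ahcy with Shmt1. All values of one array come from one RNA sample, which the pairs share.

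The closest pair was Ahcy and Sardh (Pearson's r = 0.80, Spearman's rho = 0.82). It was 1 of 2 pairs that passed after adjustment over all 36 pairs (permutation test within groups, adjusted p = 0.0209 for r and 0.0184 for rho, unadjusted p = 0.00058 and 0.00056). The value was r = 0.89 within offspring of UCP1-KO dams and 0.80 within offspring of WT dams (6 mice each), and it was 0.69 without the 2 arrays furthest from the median of Ahcy. With the group means left in, r was 0.65 and the pair did not pass (permutation test, adjusted p = 0.129). The other pair that passed was Mat1a and Nnmt (r = 0.79, rho = 0.83, permutation adjusted p = 0.0286 and 0.0184), with r = 0.86 within offspring of UCP1-KO dams, where arrays 8, 10 and 11 form the high level of Nnmt, and 0.59 within offspring of WT dams. It was 0.87 without the 2 arrays furthest from the median of Mat1a. With the group means left in, r of this pair passed and rho did not (permutation adjusted p = 0.0331 and 0.0737). Mat1a and Gnmt had r = 0.74 and rho = 0.59 (permutation adjusted p = 0.129 and 0.199), with r = 0.23 without the 2 arrays furthest from the median of Mat1a. Bhmt and Bhmt2 had r = 0.66 and rho = 0.64 (permutation adjusted p = 0.121 and 0.125), and 0.72 without the 2 arrays furthest from the median of Bhmt. Gnmt and Sardh, which make and use sarcosine, had r = 0.62 and rho = 0.52 (permutation adjusted p = 0.129 and 0.228), and 0.22 without 2 arrays.

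**Figure D3:**
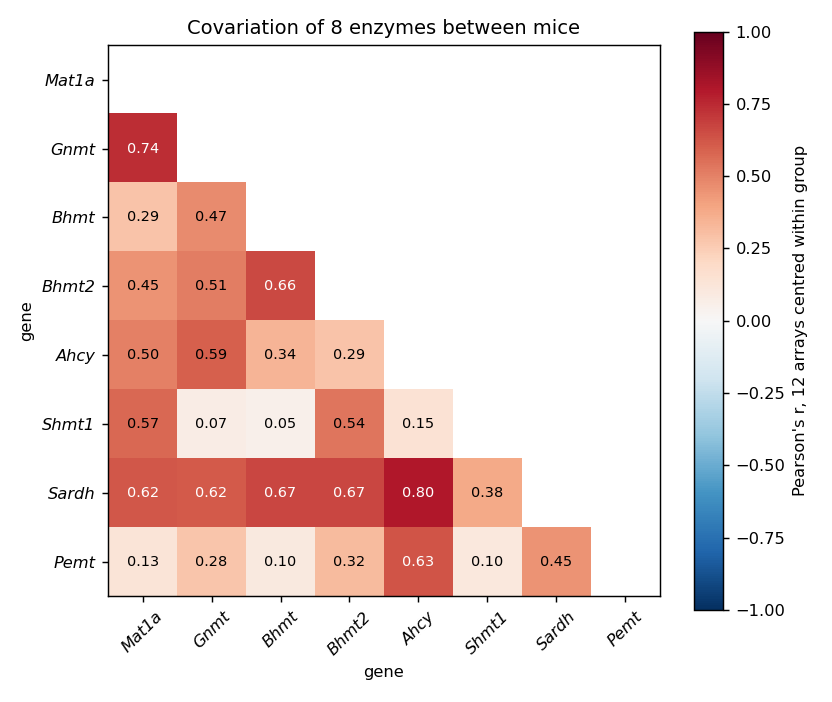
Pearson's r between 8 of the enzymes over 12 arrays, after the values of each group were centred on their mean. All 28 values are positive, from 0.05 for Bhmt with Shmt1 to 0.80 for Ahcy with Sardh. Nnmt is left out because its values in offspring of UCP1-KO dams fall into a low and a high set of arrays. Its pair with Pemt had r = -0.08.

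Among 9873 other probe sets with 1 symbol and a signal above the negative controls, those most like each enzyme over the 12 arrays, centred within groups, were sought as a description. Nnmt was most like Mmd2 (r = 0.95, rho = 0.96) and Slc25a15 (r = 0.95, rho = 0.91), the mitochondrial ornithine carrier of the urea cycle. Mmd2 read 8.80, 9.61 and 11.52 on UCP1-KO-dam arrays 8, 10 and 11, against 4.31 to 5.32 on arrays 7, 9 and 12 and 4.55 to 6.33 on the WT-dam arrays. On 8 of the 9 arrays without these 3, Mmd2 was dimmer than the median of the negative controls. Over these 9 arrays, with the group means left in, r with Nnmt was 0.76 for Slc25a15. Bhmt2 was most like Cyp7a1, the rate-limiting enzyme of bile acid synthesis (r = 0.92, rho = 0.88), and Trim14 (r = 0.91, rho = 0.80). Sardh was most like Akr1d1, a reductase of bile acid and steroid metabolism (r = 0.92, rho = 0.97), and Dcxr (r = 0.91, rho = 0.88). Ahcy was closest to Mpc1, a subunit of the mitochondrial pyruvate carrier (r = 0.91, rho = 0.87), and Sephs2, of selenium metabolism (r = 0.90, rho = 0.84). Mat1a was closest to Cyp2b10, a drug-inducible cytochrome P450 (r = 0.97, rho = 0.93), and Coq9, of coenzyme Q synthesis (r = 0.93, rho = 0.90). Gnmt was closest to the protease gene Ctsl (r = 0.91, rho = 0.86) and Coq7, also of coenzyme Q synthesis (r = 0.91, rho = 0.80). Pemt was closest to Zdhhc12 (r = 0.97, rho = 0.96) and Ndufs8, a subunit of respiratory complex I (r = 0.97, rho = 0.88). Bhmt was closest to Cabcoco1 (r = 0.91, rho = 0.94) and Nufip1 (r = 0.89, rho = 0.90), and Shmt1 to Cd1d1 (r = 0.84, rho = 0.73) and Pus3 (r = 0.83, rho = 0.64). Without the 2 arrays furthest from the median of the enzyme, r fell to 0.52 for Pus3 and 0.60 for Coq7. It was 0.71 or more for the other pairs. With so many probe sets and 12 arrays, high values can be found for any gene.

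The rest of the pathway was described with 8 lists of 109 genes, of which 98 were measured. By limma, 1 of the 98 was called higher and 0 lower. Of all 22206 probe sets, 1 was called higher (0.0045%) and 7 lower (0.0315%). The 1 called gene of the lists is thus the only upward call of the series. It was known from earlier results when the lists were chosen, so its place in a list is no test of the pathway. The looser threshold, an unadjusted p under 0.05, was met by 11 in each direction, against backgrounds of 7.08% of all probe sets higher and 6.0% lower. The 22 are 22.4% of the 98, while 17.3% of the probe sets brighter than the negative controls and 13.1% of all tested met it. The median difference of the 98 was -0.04.

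The 1 called gene was Csad, cysteine sulfinic acid decarboxylase of taurine synthesis, which lies downstream of the methionine cycle and rose by 2.43 on the log2 scale (limma adjusted p = 0.0139). Its signal was 14.21 ± 0.35 in offspring of UCP1-KO dams and 11.78 ± 1.02 in offspring of WT dams (SD, n = 6 each). Cbs, which joins homocysteine to serine, had 0.30 (limma adjusted p = 0.438). Of the 8 genes of this list 7 had differences above 0, with a median of 0.25, where 56.8% of all probe sets lay above 0. Csad was the 1 gene of the list with an unadjusted p under 0.05 by limma. Gclm, of glutathione synthesis, had 0.23 and Gss, which completes glutathione, 0.32. The call of Csad ended without UCP1-KO-dam array 8 (difference 2.47, limma adjusted p = 0.0592), without UCP1-KO-dam arrays 8, 10 and 11 (2.48, adjusted p = 0.289) and without WT-dam arrays 3 to 6 (1.79, adjusted p = 0.553). It also ended with a variance trend and robust estimation (2.43, limma adjusted p = 0.0623) and with the negative control signal as covariate (2.01, adjusted p = 0.089).

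Among 15 measured folate genes, 2 lay higher and 2 lower at the unadjusted threshold. That is 26.7% of the list, against 13.1% of all probe sets and 17.3% of those brighter than the negative controls. Shmt2, the mitochondrial counterpart of Shmt1, was at 13.60 to 14.11 in offspring of UCP1-KO dams and 14.13 to 14.64 in offspring of WT dams. The groups did not overlap, as for 1.05% of all probe sets, yet the difference of -0.49 did not pass (interval -0.78 to -0.19, limma adjusted p = 0.157). Ggh, which trims folate polyglutamates, had 0.53, and Tyms, the thymidylate synthase, -0.38. Mthfd1l, of mitochondrial folate metabolism, had 0.50 with non-overlapping groups but was dimmer than the negative controls on all 12 arrays.

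Of 14 measured choline and betaine genes 2 were higher and 2 lower at the unadjusted threshold. That is 28.6% of the list, against 17.3% of the probe sets brighter than the negative controls. Chkb, a choline and ethanolamine kinase, read 10.32 to 10.88 in offspring of UCP1-KO dams and 10.56 to 11.54 in offspring of WT dams, a difference of -0.61. Etnk1, an ethanolamine kinase, read 9.57 to 10.16 and 8.84 to 9.97 in the same order, a difference of 0.62. In both, WT-dam array 2 lay within the range of the offspring of UCP1-KO dams, at 10.56 for Chkb and 9.97 for Etnk1. Neither passed with all arrays (limma adjusted p = 0.136 and 0.149), and both passed without WT-dam array 2 (adjusted p = 0.035 each, differences -0.74 and 0.76). Pcyt2, of the ethanolamine branch that supplies the substrate of Pemt, had -0.48 and Slc25a48 0.53.

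Of 14 measured nicotinamide and NAD genes, 1 was higher and 4 lower at the unadjusted threshold. These are 35.7% of the list, against 17.3% of the probe sets brighter than the negative controls. The lists are small, and the shares were 33.3% for vitamin B12 handling, 28.6% for choline and betaine and 26.7% for folate. Without UCP1-KO-dam arrays 8, 10 and 11 the counts were 2 higher and 0 lower. Without WT-dam arrays 3 to 6 they were 0 and 0, and with the negative control signal as covariate 1 and 1. Nampt, which returns nicotinamide to NAD and so draws on the same substrate as Nnmt, read 10.40 to 10.94 in offspring of UCP1-KO dams and 9.80 to 10.58 in offspring of WT dams. Its difference was 0.51 (interval 0.18 to 0.84, limma adjusted p = 0.185). It did not follow the order of Nnmt, since UCP1-KO-dam array 10 was high in Nnmt and, at 10.40, the lowest of its group in Nampt. Nadsyn1, the last step of NAD synthesis from tryptophan or nicotinic acid, had -0.47, Nmnat3 -0.42 and Haao, of tryptophan breakdown, -0.36.

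The remaining lists had 1 to 3 genes each at the unadjusted threshold. In the methionine salvage list these were Apip with -0.35 and the spermine synthase gene Sms with 0.42, while Mri1 had -0.34 and Enoph1 0.24. Among serine and glycine genes they were Psph, the last step of serine synthesis, with 0.40 and Dld, a subunit of the glycine cleavage system and of other mitochondrial dehydrogenases, with 0.37. Pipox, which like Sardh oxidises sarcosine, had -0.24, and Agxt had 0.47. Of the other methyltransferases it was Dnmt3b, with -0.35 and a signal below the negative controls on all 12 arrays. Gamt, the creatine-forming methyltransferase, had -0.46, As3mt 0.41 and Dot1l -0.31. Among genes of vitamin B12 handling they were the B12 carrier gene Tcn2 with -0.61, its receptor gene Cd320 with 0.31 and Lmbrd1 with 0.33, while Mmab had -0.48. None of these passed over all probe sets (limma adjusted p = 0.165 to 0.555).

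**Figure D4:**
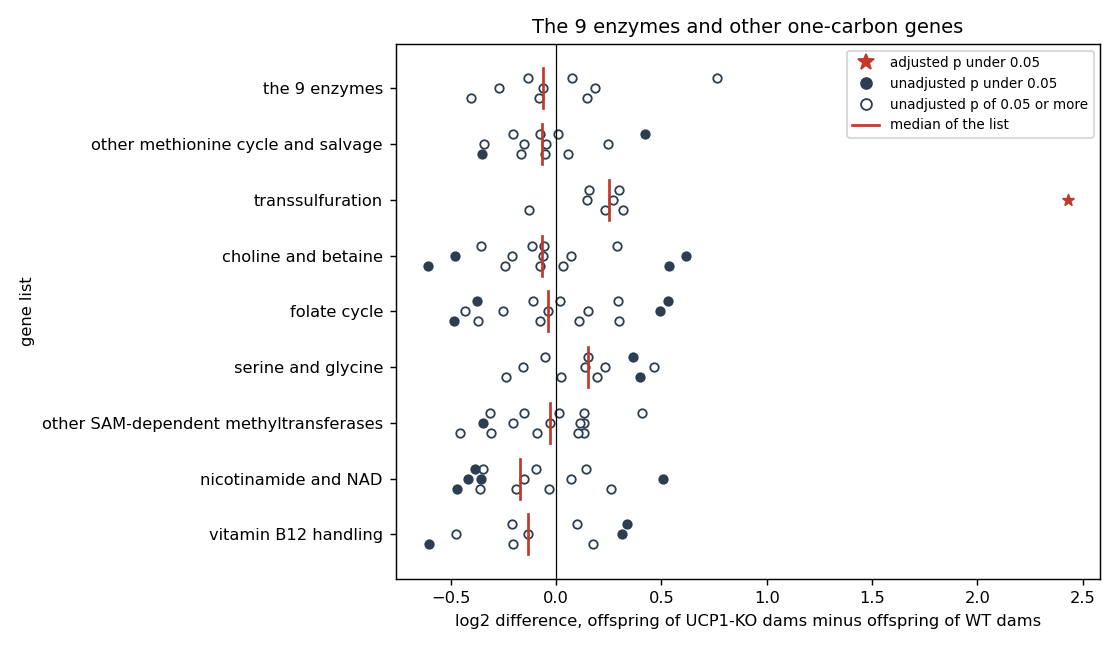
Log2 difference (UCP1-KO-dam minus WT-dam offspring) of the 9 enzymes and of 98 other genes in 8 lists (1 point per gene, bars at list medians). Csad, at 2.43 in the transsulfuration list, is the 1 gene with an adjusted p under 0.05, and no point of the 9 enzymes is filled, since none had an unadjusted p under 0.05.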

How the data were processed

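The deposited values are log2 signals. The Transcriptome Analysis Console and RMA are named for them in the submitters' processing notes, and RMA includes background correction, normalization between arrays and a summary of the probes. Versions are not given in the sources used here. Normalization between arrays would reduce a change shared by most genes, and the number of arrays limits the precision. RNA was prepared with a column kit and labelled with biotin, per the labels' protocols. The 6640 control probe sets were left out of the tests. Of the 22206 others, 19572 had 1 symbol, 0 several and 2634 none.

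The test was limma 3.58.1 (R 4.3.3; lmFit and eBayes, two-sided) with dam genotype as the only term and Benjamini-Hochberg adjustment across all 22206. Exact permutation tests used the 924 ways of choosing 6 of 12 arrays, with 0.00216 as the smallest p. Correlations used 100000 permutations, within groups for centred values and over all 12 arrays where the group means were left in. On simulated data with these spreads, 26% of changes of 0.5 log2 were recovered, 84% of those of 1 log2 and 100% of larger ones (200 altered among 22206). Adjustment is stricter where fewer change. The members, gene lists and alternatives were chosen with earlier results of these data known. In each list, members called and then those of smallest p are named, up to 4, and for each enzyme the 2 most similar probe sets. Listed genes without a probe set of that symbol were not analysed here.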

Additional observations from a re-analysis of the deposited data

Results flagged for a closer look

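Among the 18 sets of 6 values (9 enzymes in both groups), 2 held an array far from the rest by Dixon's criterion, where chance gives about 1 in 20. Both concern the brightest probe set of Pemt. In offspring of UCP1-KO dams, array 8 read 16.04 and the next lowest 16.59, a gap of 0.808 of the range, above the critical value of 0.625. In offspring of WT dams, array 1 read 17.06 and the next highest 16.67, a gap of 0.635 of the range. On each of the 4 other probe sets of Pemt, array 8 was again the lowest of its group, at 14.94, 14.83, 14.93 and 15.66, but its gap was 0.58 to 0.608 of the range, below the critical value. Array 1 was the highest of its group on these 4 as well, with a gap of 0.145 to 0.208 of the range.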

How the results depend on the processing

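The count of the 9 enzymes called stayed 0 in all 21 refits and at an unadjusted p under 0.05 with at least 1.5-fold. Of the 189 refitted differences 180 kept their direction, and 0 passed. The direction turned for Mat1a (-0.0198), Gnmt (-0.0963), Pemt (0.007) and Nnmt (-0.195) without UCP1-KO-dam arrays 8, 10 and 11, and for Gnmt (-0.0294) and Shmt1 (0.0011) without WT-dam arrays 3 to 6. With 1 array left out, the differences ran from -0.0216 to 0.129 for Gnmt, -0.158 to 0.011 for Sardh and -0.126 to 0.0209 for Pemt. The cause was not tested, beyond the arrays left out. Bhmt, Bhmt2 and Ahcy kept their direction in every refit. The number of enzymes at an unadjusted p under 0.05 was 1 after quantile normalization, and 0 to 2 with 1 array left out.

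Among all probe sets, 8 were called, 32 with the dimmer 50% left out, 22 with a variance trend and robust estimation, 2 with negative control signal as covariate, 0 without WT-dam arrays 3 to 6, 0 without UCP1-KO-dam arrays 8, 10 and 11, and 1 (UCP1-KO-dam array 8) to 112 (WT-dam array 2) with 1 array left out. By an unadjusted p under 0.05 and at least 1.5-fold there were 505. Of the other 98 pathway genes, in alternatives chosen after the data were seen, 1 was called, against 0 with a variance trend, 0 with the covariate, 0 without either set of arrays and 0 to 3 with 1 array left out. The correlations of Bhmt with Nnmt (-0.13) and of Ahcy with Shmt1 (-0.03) turned with the group means left in. No paired analysis was possible because the array numbers are not shared between the groups.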
